A study of Mus musculus with 34 samples.

Results

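The binding described here is that of the transcription factors BATF, IRF4 and Foxp3 at 5 mouse genes for MAP kinase phosphatases: Dusp4, Dusp5, Dusp6, Dusp2 and Dusp10. A peak belonged to one of these genes when its body was the nearest protein-coding gene body, at 0 bp if the peak lay inside it and at most 100000 bp away. Of 41612 peaks in 4 deposited tables, 64 met this rule: 18 of Dusp4, 18 of Dusp5, 14 of Dusp6, 7 of Dusp2 and 7 of Dusp10. The members were chosen by the positions of peaks called from these same libraries, so the presence of peaks at these genes is a description and not a result. High BATF and IRF4 values at Dusp4 in Treg cells were already known at that time, so Dusp4 in the comparisons of Treg with Tconv cells is a description. Its peaks enter the counts of called peaks there, and the main counts are also given without them.

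C57BL6/J mice gave CD4 T cells, sorted fresh from spleen and lymph nodes and studied by chromatin immunoprecipitation and sequencing. All groups carry a Foxp3-IRES-hCD2 reporter allele in some form, in which human CD2 on the cell surface marks cells that express Foxp3. BATF was measured in CD4+hCD2+ regulatory T (Treg) cells and CD4+hCD2- conventional T (Tconv) cells, with 2 libraries each, and IRF4 in the same populations with 4 libraries each. Foxp3 was measured, with 2 libraries each, in all CD4+hCD2+ Treg cells of wild-type mice, in those of Batf-/- mice, in central Treg cells (CCR7hiCD62LhiCD44lo) and in effector Treg cells (CCR7loCD62Llo). A second BATF table holds 2 libraries of CD4+hCD2+GFP- Treg cells with the alleles Foxp3R397W-IRES-hCD2 and Foxp3-IRES-GFP, in which the hCD2 allele carries the Foxp3 mutation R397W. It also holds 2 control libraries, sorted the same way, from mice with the alleles Foxp3WT-IRES-hCD2 and Foxp3-IRES-GFP. The sort without GFP keeps cells that use the hCD2 allele, in animals that also have cells with wild-type Foxp3. Whether libraries of a group came from separate animals is not given, so p-values measure only the spread between these libraries, which may be technical.

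MAP kinase phosphatases of the dual-specificity (Dusp) family remove phosphate from both the threonine and the tyrosine of activated MAP kinases and so end the signal. Dusp2, Dusp4 and Dusp5 are inducible nuclear members, of which Dusp5 is specific for ERK, while Dusp6 is a cytoplasmic ERK phosphatase. Dusp10 acts mainly on JNK and p38. In T cells the ERK, JNK and p38 pathways carry signals from the antigen receptor, and several Dusp genes are themselves induced by that signal. BATF is an AP-1 family factor that binds DNA together with IRF4 at composite elements, and Foxp3 is the lineage factor of Treg cells.

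The values are normalised reads in a peak of 400 bp in the median, called normalised reads below. Libraries of the first BATF table had 1377509 to 2280493 reads within its peaks, those of the second 144319 to 1009580, and there were 162580 to 336969 for IRF4 and 164740 to 393310 for Foxp3. Input libraries, 10 in number, were not used here. Peaks of 8 Treg marker genes, such as Foxp3 and Ikzf2, were higher in Treg than Tconv cells for BATF at 28 of 35 and lower at 1, and for IRF4 higher at 11 of 19 and lower at none. Of 7 B cell marker genes, Cd79a and Pax5 had a BATF or IRF4 peak in these tables, and Ms4a1 had none. Bulk libraries cannot tell fewer cells of a type from less binding per cell.

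Promoter sequences were matched by symbol for Dusp2, Dusp5, Dusp6 and Dusp10. Of these, 2 are shown, since the start of Dusp6 has peaks of all 3 factors and that of Dusp5 has BATF and IRF4 peaks and no Foxp3 peak. Both are RefSeq sequences of GRCm38.p6, the assembly also called mm10, on the forward strand, from 250 bases before the transcription start to the base before it. Capitals mark matches to the CArG box, the element bound by serum response factor. The motif set was chosen after the sequences were seen.

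Dusp6, chr10:99262981-99263230: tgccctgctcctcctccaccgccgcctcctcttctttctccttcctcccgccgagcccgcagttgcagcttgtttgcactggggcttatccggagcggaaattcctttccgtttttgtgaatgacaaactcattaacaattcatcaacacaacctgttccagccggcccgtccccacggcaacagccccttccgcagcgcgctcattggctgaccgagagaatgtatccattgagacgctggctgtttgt

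Dusp5, chr19:53528895-53529144: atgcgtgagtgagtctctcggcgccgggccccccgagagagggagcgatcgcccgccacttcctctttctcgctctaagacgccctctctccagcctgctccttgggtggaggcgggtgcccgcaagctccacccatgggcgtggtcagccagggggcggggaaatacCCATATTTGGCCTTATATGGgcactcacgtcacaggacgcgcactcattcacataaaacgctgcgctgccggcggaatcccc

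The Dusp5 sequence holds 2 CArG boxes in direct succession, at bases -82 to -73 and -72 to -63 from the start. A CArG box on either strand was found in 1.63% of 32817 mouse promoters of the same 300-base length (250 bases before to 50 after the start). No such box was found in the promoters of Dusp6, Dusp2 or Dusp10. The AP-1 site TGANTCA (7.81% of promoters), the cyclic AMP response element TGACGTCA (1.79%), the IRF element GAAANNGAA (8.55%), the forkhead site TGTTTAC (3.65%) and the ETS site CCGGAAG (8.86%) were in none of the 4 promoters on either strand. A match is a description of letters, and a missing match says only that these letters are not in the window. Peaks of the first BATF table covered bases of all 4 promoters, against 24.7% of all promoters. IRF4 peaks covered those of Dusp5 and Dusp6, against 10.3%. Foxp3 peaks covered those of Dusp6 and Dusp10, against 1.99%, and the Foxp3 peak over the Dusp10 promoter lies nearest to a neighbouring gene, 1700056E22Rik, so it is not among the 64. The second BATF table had no peak over these 4 promoters. The members were chosen by positions of peaks from these same libraries, so these promoter counts are a description and not a result.

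Overlapping peaks of different tables were joined to 34 sites, named here by the distance from the site's middle to the lower-coordinate end of the gene. This end is the start of Dusp2, Dusp5, Dusp6 and Dusp10, which lie on the forward strand. For Dusp4 the table used gives no strand, and "before" means the lower-coordinate side. All 3 factors had peaks at 6 sites: at Dusp4 67.2, 51.9 and 51.2 kb before the gene, and at Dusp6 21.8, 21.0 and 0.2 kb before the start. Another 9 sites had peaks of 2 factors, and 19 had peaks of 1. Dusp5, with 9 sites, had none with all 3 factors. By the rule of the nearest gene body, Dusp2 had no peak in the Foxp3 table and none in the second BATF table. The latter does hold a BATF peak at a distance of 477 bp from Dusp2. This peak lies inside the neighbouring gene Astl, so it was not assigned to Dusp2. It held 39.3 and 35.3 normalised reads in R397W and 55.5 and 58.8 in control cells. Of the 13 IRF4 peaks, 11 overlapped a peak of the first BATF table (84.6%, against 76.0% of all IRF4 peaks), and these are 42.3% of the 26 BATF peaks, against 43.0% of all. Of the 15 Foxp3 peaks, 9 overlapped a BATF peak of either table (60.0%, against 52.5%).

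The distance limit left out peaks whose nearest protein-coding gene was also a member. A peak 135521 bp from Dusp4 held 150 and 105 normalised BATF reads in the Treg libraries and 16.3 and 3.57 in the Tconv libraries. A peak 118431 bp from Dusp6 held 89.1 and 70.0 in Treg and 113 and 101 in Tconv cells. The farthest member of the first BATF table lay 68387 bp from Dusp5 and held 68.4 and 66.6 in Treg and 24.4 and 15.7 in Tconv cells.

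BATF binding in Treg against Tconv cells was higher at peaks of Dusp4, Dusp5 and Dusp2 and at no peak of Dusp6 or Dusp10. Of the 26 member peaks, 10 were called higher and none lower at an adjusted p under 0.05 in limma, beside 14.9% of all 16109 peaks called higher and 4.79% called lower. At an unadjusted p under 0.05 none was lower either, nor with edgeR or DESeq2. Without Dusp4, 6 of 19 peaks were called higher (31.6%). The median log2 fold change was 0.51 over the 26 peaks, 0.42 without Dusp4 and -0.03 over all peaks. The called peaks lay 1.0 to 68.6 kb from the lower-coordinate end of the gene, and the peaks nearest to the starts of Dusp2, Dusp5, Dusp6 and Dusp10, 1 per gene, were not called. Both Treg libraries exceeded both Tconv libraries at 18 of the 26 peaks, against 28.5% of all peaks. These were all 7 of Dusp4, 6 of 7 of Dusp5, 2 of 4 of Dusp6, 3 of 6 of Dusp2 and none of Dusp10.

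**Figure D1:**
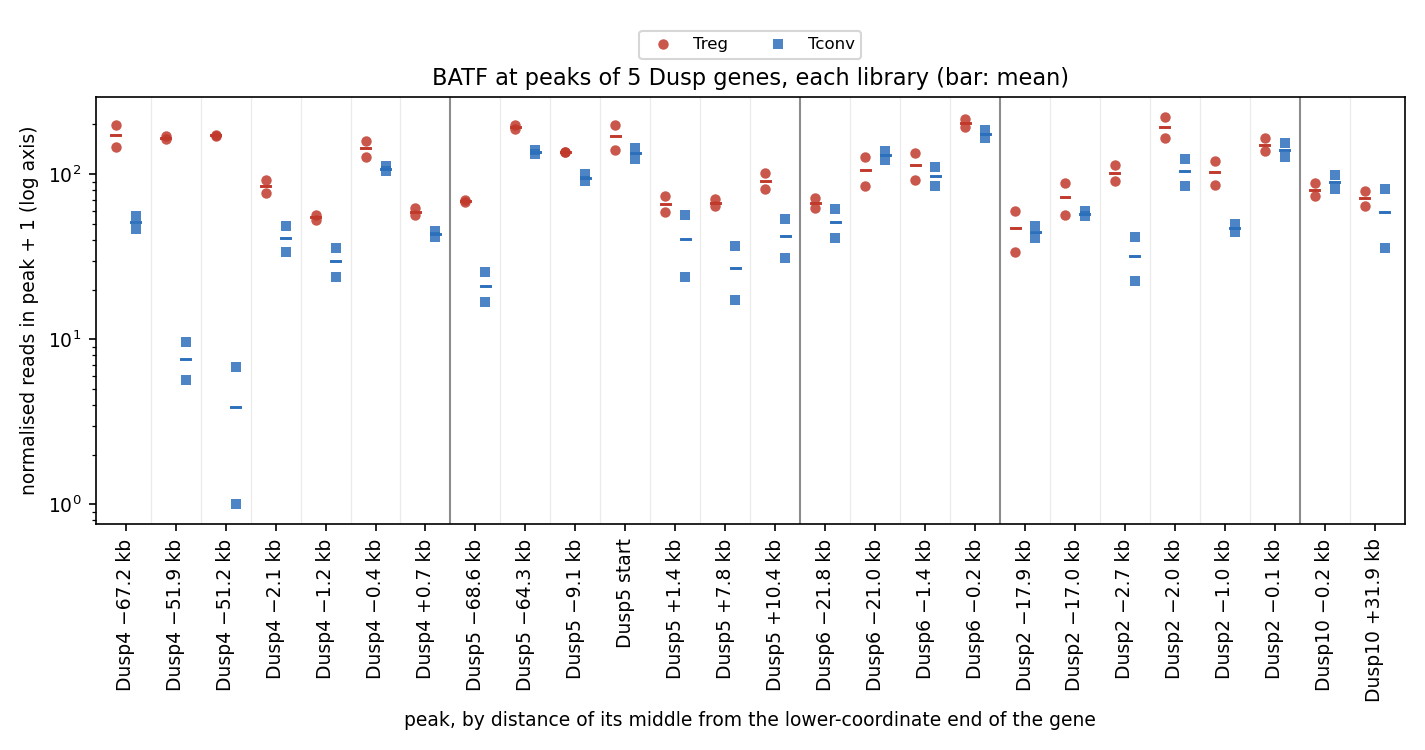
Normalised BATF reads plus 1 (log axis) in each of 2 Treg (circles) and 2 Tconv libraries (squares) at the 26 peaks, ordered by gene and by distance from its lower-coordinate end, with a bar at each mean. The Tconv values fall below 10 at the Dusp4 peaks 51.9 and 51.2 kb before the gene, while both Treg libraries hold over 160 there.

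At Dusp4 the BATF signal in Treg cells was nearly the same at 3 distal sites and differed among them in Tconv cells. The peak 51.9 kb before the gene (chr8:34755486-34755886) held 169 and 161 normalised reads in the Treg libraries and 4.65 and 8.57 in the Tconv libraries. The neighbouring peak 51.2 kb before it (chr8:34756213-34756613) held 169 and 173 in Treg cells and 5.81 and 0 in Tconv cells, which are 5 and 0 reads. The peak 67.2 kb before it (chr8:34740240-34740640) held 144 and 198 against 54.6 and 45.7. In Tconv cells the site farthest from the gene thus held more BATF signal than the nearer pair, where no Tconv library had over 12 reads. No annotated gene lies over these 3 sites, and the next protein-coding gene, Tnks, was 88503, 73212 and 72566 bp away from them, in the order from the farthest site.

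On the scale of value plus 1, the fold was 3.33 at 67.2 kb and 22.6 at 51.9 kb. The fitted log2 fold change at 51.9 kb was 4.50 with a pseudocount of 1 and 4.02 with 4. At 51.2 kb one Tconv library lies under the floor of 3 reads, so no fold is given. Its fitted log2 fold change was 6.04 with a pseudocount of 1 and 4.80 with 4. By increase with a pseudocount of 1 it had rank 5 of 16109 peaks, and the peak at 51.9 kb had rank 101. The ranks with a pseudocount of 4 were not computed. Nearer to the gene the differences were smaller. The peak 2.1 kb before it held 75.7 and 91.5 in Treg against 47.6 and 32.8 in Tconv cells, a 2.08-fold difference. Its call was kept in 6 of 11 alternatives and lost in the others, among them quantile normalisation and DESeq2. The peaks 1.2 kb before, 0.4 kb before and 0.7 kb after the lower-coordinate end held 1.88, 1.33 and 1.36 times as much in Treg cells. These last peaks were not called.

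Dusp5, the nuclear ERK phosphatase gene, had 3 of 7 BATF peaks called higher in Treg cells. The peak 68.6 kb before the start, within the lncRNA genes Mirt1 and 4833407H14Rik (chr19:53460358-53460758), held 68.4 and 66.6 normalised reads in Treg and 24.4 and 15.7 in Tconv cells. Its log2 fold change was 1.73 ± 0.39 (SE, n = 2 per group; limma adjusted p = 0.00329), and it was called in all 10 alternatives in which it was tested. Inside the gene body, the peak 7.8 kb after the start held 69.5 and 63.2 against 16.3 and 35.7 (log2 fold change 1.42 ± 0.40 SE, limma adjusted p = 0.0176). The peak 10.4 kb after the start held 101 and 80.2 against 52.3 and 30.0 (1.16 ± 0.32 SE, limma adjusted p = 0.0160). The groups did not overlap at these 3 peaks. The call at 7.8 kb was lost in 5 of 10 alternatives (adjusted p up to 0.138), and that at 10.4 kb in 3 of 11 (up to 0.133).

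The strongest BATF peak of Dusp5 was not among them. It lay 64.3 kb before the start and held 186 and 198 normalised reads in Treg and 139 and 131 in Tconv cells (log2 fold change 0.50, 95% interval 0.10 to 0.90, limma adjusted p = 0.0803). At the Dusp5 start, the peak over the CArG boxes printed above held 139 and 199 in Treg and 144 and 122 in Tconv cells. Those groups overlapped, and the interval of the log2 fold change ran from -0.13 to 0.78.

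Dusp2, an inducible nuclear phosphatase gene of 2219 bp, had 3 of 6 BATF peaks called higher, all within the lncRNA gene Gm46762 between 2.7 and 1.0 kb before the start. The peak 2.7 kb before it (chr2:127333237-127333637) held 112 and 90.3 normalised reads in Treg and 40.7 and 21.4 in Tconv cells. The peak 2.0 kb before it, the strongest of the gene, held 222 and 165 against 122 and 84.3. The peak 1.0 kb before it held 119 and 84.7 against 48.8 and 43.6. In all 3 the Treg libraries lay above the Tconv libraries.

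The log2 fold changes of these Dusp2 peaks were 1.73 ± 0.34, 0.91 ± 0.23 and 1.11 ± 0.28 (SE, limma adjusted p = 0.00133, 0.00819 and 0.00926). The first was called in all 11 alternatives, the second in 8 and the third in 10; without Treg library 1 neither of the latter was called (over all alternatives the adjusted p reached 0.115 and 0.134). By contrast the peak over the Dusp2 start held 164 and 137 in Treg and 125 and 153 in Tconv cells. Its groups overlapped, with an interval of -0.32 to 0.55 for the log2 fold change.

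Dusp6, the cytoplasmic ERK phosphatase gene, had the strongest start-site BATF peak of the 4 genes with a known start, and none of its 4 BATF peaks was called. The peak 0.2 kb before the start (chr10:99262878-99263278) held 192 and 216 normalised reads in Treg and 165 and 184 in Tconv cells, and 10.4% of all peaks had a higher mean. Its log2 fold change was 0.22 with an interval of -0.17 to 0.61. The pair of peaks 21.8 and 21.0 kb before the start held 61.2 to 71.1 and 84.0 to 125 in Treg cells, and 40.0 to 60.4 and 121 to 137 in Tconv cells. At Dusp10, the gene of the JNK and p38 phosphatase, the start-site peak held 72.6 and 87.0 in Treg and 97.6 and 80.7 in Tconv cells (interval -0.69 to 0.37). The peak 31.9 kb after the start, inside the gene, held 77.7 and 63.2 against 34.8 and 80.7, with overlapping groups at both Dusp10 peaks.

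Peaks of 9 effector Treg marker genes, such as Il10 and Ccr8, moved in the same comparison. Of their 37 BATF peaks 29 were called higher and none lower in limma, with summed levels of 3758 to 4217 normalised reads in Treg and 1239 to 1369 in Tconv cells. Markers of other cell types moved as well. Of 3 BATF peaks of B cell markers 1 was called higher, in Pax5 (66.6 ± 12.8 in Treg against 10.1 ± 2.15 in Tconv cells, SD, n = 2 each, limma adjusted p = 0.000408), and their summed levels were 178 to 201 against 107 to 146. Of 5 peaks of 7 myeloid markers 2 were called higher and none lower, in Cebpa (43.2 ± 0.440 against 3.30 ± 1.39) and Cebpb (287 ± 22.0 against 164 ± 29.3), with summed levels of 616 to 623 against 383 to 412. Lyz2, Csf1r, Itgam and Adgre1 had no BATF peak. Of 11 peaks of 8 CD8 and NK cell markers 1 was called higher and 2 lower, with 457 to 484 against 560 to 574. The part of these differences in the Dusp results was not tested.

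IRF4 binding was called different between Treg and Tconv cells at 3 of 13 member peaks, all higher in Treg cells. Of all 9134 IRF4 peaks, 15.8% were called higher and 8.39% lower. Of these 3 peaks, 2 were at Dusp4 and 1 at Dusp5, and without Dusp4 the count was 1 of 10. None was called lower, and none was lower at an unadjusted p under 0.05 or with edgeR or DESeq2. The median log2 fold change was 0.11 over the 13 peaks, -0.19 without Dusp4 and -0.05 over all peaks. The groups of 4 libraries did not overlap at 2 of 13 peaks, both of Dusp4, against 15.0% of all peaks with Treg cells above. The member counts are near these shares of all peaks. In the same comparison the Pax5 peak was called higher for IRF4 (33.0 ± 11.3 against 15.0 ± 10.3, SD, n = 4 each, limma adjusted p = 0.0242), 1 of 3 peaks of B cell markers, whose summed levels were 44.3 to 82.5 in Treg and 39.7 to 64.0 in Tconv cells. Of 4 myeloid marker peaks and 1 of CD8 and NK cells none was called in limma, and 1 myeloid peak was higher at an unadjusted p under 0.05. The part of this in the Dusp results was not tested.

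The pair of Dusp4 sites with few BATF reads in Tconv cells also held less IRF4 there than in Treg cells. The peak 51.2 kb before the gene held 105, 192, 143 and 138 normalised IRF4 reads in the Treg libraries and 13.7, 29.2, 12.6 and 22.9 in the Tconv libraries. The peak 51.9 kb before it held 62.7, 63.4, 82.3 and 77.6 against 6.46, 15.3, 15.3 and 20.6. The fold was 7.30 at 51.2 kb and 5.00 at 51.9 kb, ranks 106 and 275 of 9134 by increase. In these sites IRF4 in Tconv cells stayed above the value of 3 reads, which is at most 3.43 in those libraries.

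The Dusp4 site 67.2 kb before the gene carried IRF4 in both cell types. It held 109, 98.3, 118 and 114 normalised reads in Treg and 69.5, 75.9, 80.3 and 101 in Tconv cells, and 1.43% of all IRF4 peaks had a higher mean. The groups overlapped, with a log2 fold change of 0.43. This is the strongest IRF4 peak of the 5 genes by the mean over all 8 libraries.

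**Figure D2:**
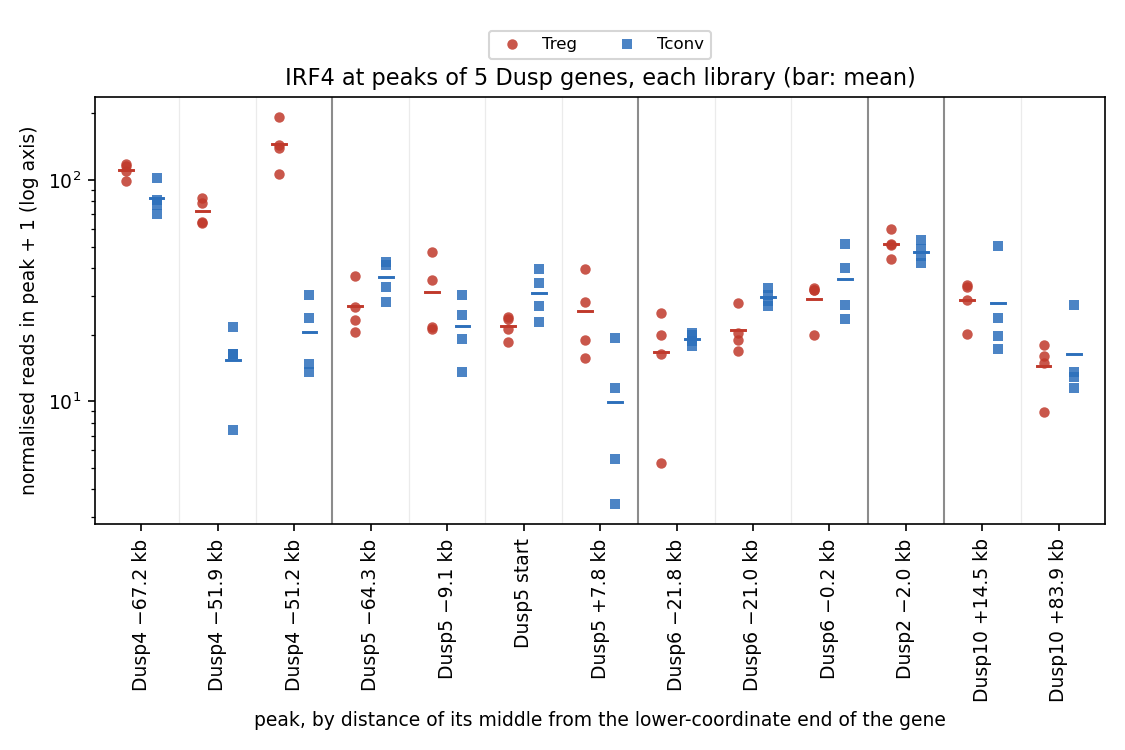
Normalised IRF4 reads plus 1 (log axis) in each of 4 Treg (circles) and 4 Tconv libraries (squares) at the 13 member peaks, with a bar at each mean. The groups are apart at the Dusp4 peaks 51.9 and 51.2 kb before the gene, and overlap at the other 11.

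At Dusp5, the peak 7.8 kb after the start held 14.7, 27.0, 38.5 and 17.9 normalised IRF4 reads in Treg and 2.42, 10.4, 4.51 and 18.3 in Tconv cells. The lowest Treg libraries overlapped the highest Tconv library. The value of 2.42 in Tconv library 1 is that of 3 reads, the floor. The log2 fold change was 1.58 ± 0.49 (SE, n = 4 per group, limma adjusted p = 0.0202). Leaving out Treg library 2, Treg library 3, Tconv library 1 or Tconv library 3 ended the call, with an adjusted p of up to 0.0995 over the alternatives. BATF was also called higher at this site. At the Dusp5 start IRF4 stood at 17.4 to 23.0 in Treg and 21.7 to 38.8 in Tconv cells, and at the strongest Dusp5 peak, 64.3 kb before the start, at 19.6 to 35.9 and 27.2 to 41.5.

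The remaining IRF4 peaks were not called. All 3 of Dusp6 had a negative log2 fold change, from -0.25 at the start site to -0.52 at 21.0 kb, with intervals that each held 0. At the start site the Treg libraries held 19.0 to 31.3 normalised reads and the Tconv libraries 22.6 to 50.5. The Dusp2 site 2.0 kb before the start, where BATF was called higher, held 42.8 to 58.8 IRF4 reads in Treg and 41.1 to 52.5 in Tconv cells (log2 fold change 0.11, interval -0.35 to 0.58). The strongest IRF4 peak of Dusp10, 14.5 kb after the start, held 19.2 to 32.4 and 16.2 to 49.3.

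**Figure D3:**
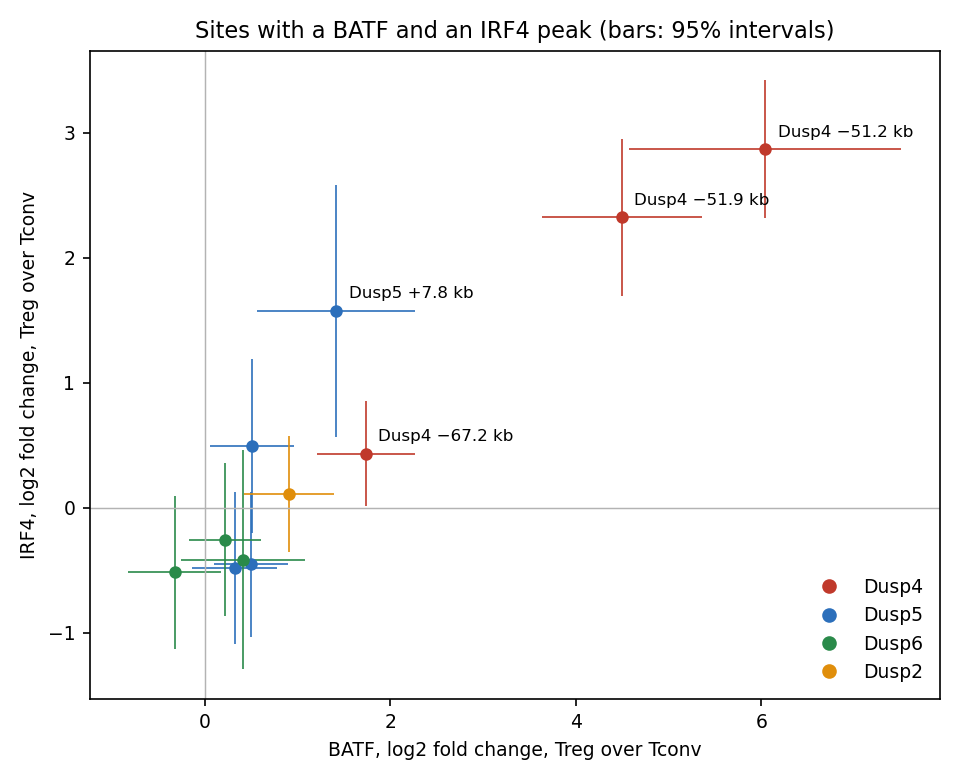
Log2 fold change of Treg over Tconv cells for BATF (horizontal) and IRF4 (vertical) at the 11 sites with a peak of both, coloured by gene, with 95% intervals, which for Dusp4 are a description. The Dusp4 sites 51.9 and 51.2 kb before the gene lie at the upper right, with 4.50 and 6.04 for BATF and 2.32 and 2.87 for IRF4, and the 3 Dusp6 sites lie near or below 0 for IRF4.

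The plot of both factors places the 11 shared sites side by side without a test of their relation, since they share libraries and genes. At Dusp4 67.2 kb the BATF log2 fold change was 1.74 and the IRF4 value 0.43. The difference between factors was not tested, since the tables are normalised separately.

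Without Batf, Foxp3 binding in Treg cells was called different from wild type at none of the 15 member peaks in limma, beside 0.547% of all 6396 Foxp3 peaks called higher and 3.91% called lower. At an unadjusted p under 0.05, 1 was higher and 1 lower, both of Dusp10. No count test was run for this comparison. The median log2 fold change was -0.02, against 0.05 over all peaks. The 95% interval lay within 1 log2 unit of no change on either side at 10 of the 15 peaks.

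At the 4 Dusp4 peaks the Foxp3 means differed by less than the spread between libraries. The site 51.2 kb before the gene held 67.7 and 54.3 normalised Foxp3 reads in wild-type and 71.1 and 50.2 in Batf knockout cells. The site at 51.9 kb held 44.5 and 57.6 against 72.2 and 32.2, and the site at 67.2 kb held 50.6 and 56.8 against 57.9 and 43.7. At each of these sites the 2 knockout libraries lay on both sides of the 2 wild-type libraries. The intervals of the log2 fold change were -0.64 to 0.60, -0.76 to 0.63 and -0.66 to 0.48.

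The peak 8.7 kb after the lower end of Dusp4, in the gene body, held 33.4 and 47.6 in wild-type and 39.6 and 41.2 in knockout cells (interval -0.59 to 0.63). At Dusp5 the strongest Foxp3 peak, 10.4 kb after the start, held 135 and 105 against 165 and 138 (interval -0.20 to 0.86). At the Dusp6 start, the strongest Foxp3 peak of the 5 genes, the values were 110 and 152 against 108 and 151, with an interval of -0.54 to 0.49. The groups overlapped at the Dusp6 start, while both knockout libraries lay above both wild-type libraries at the Dusp5 peak.

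The Dusp10 peaks with a low unadjusted p lay on weaker sites. The peak 26.4 kb after the start held 9.10 and 10.0 in wild-type and 16.3 and 24.4 in knockout cells (log2 fold change 0.99, limma adjusted p = 0.179). The peak 83.9 kb after the start, the stronger of the gene, held 44.5 and 26.7 against 18.3 and 23.2 (-0.72, limma adjusted p = 0.264). In this comparison 5 of 25 peaks of effector Treg markers were called lower and none higher, with summed levels of 834 to 1200 in knockout and 1417 to 1503 in wild-type cells.

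Foxp3 binding in effector against central Treg cells was called higher at 2 member peaks, 1 of Dusp4 and 1 of Dusp5, and lower at 1 of Dusp6. These are 3 of 15, beside 15.0% of all Foxp3 peaks called higher and 10.8% called lower. The median log2 fold change was 0.17, against -0.01 over all peaks. The groups did not overlap at 6 peaks with effector cells above and at 4 with central cells above, against 31.6% and 32.6% of all peaks. The member counts are near these shares of all peaks.

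**Figure D4:**
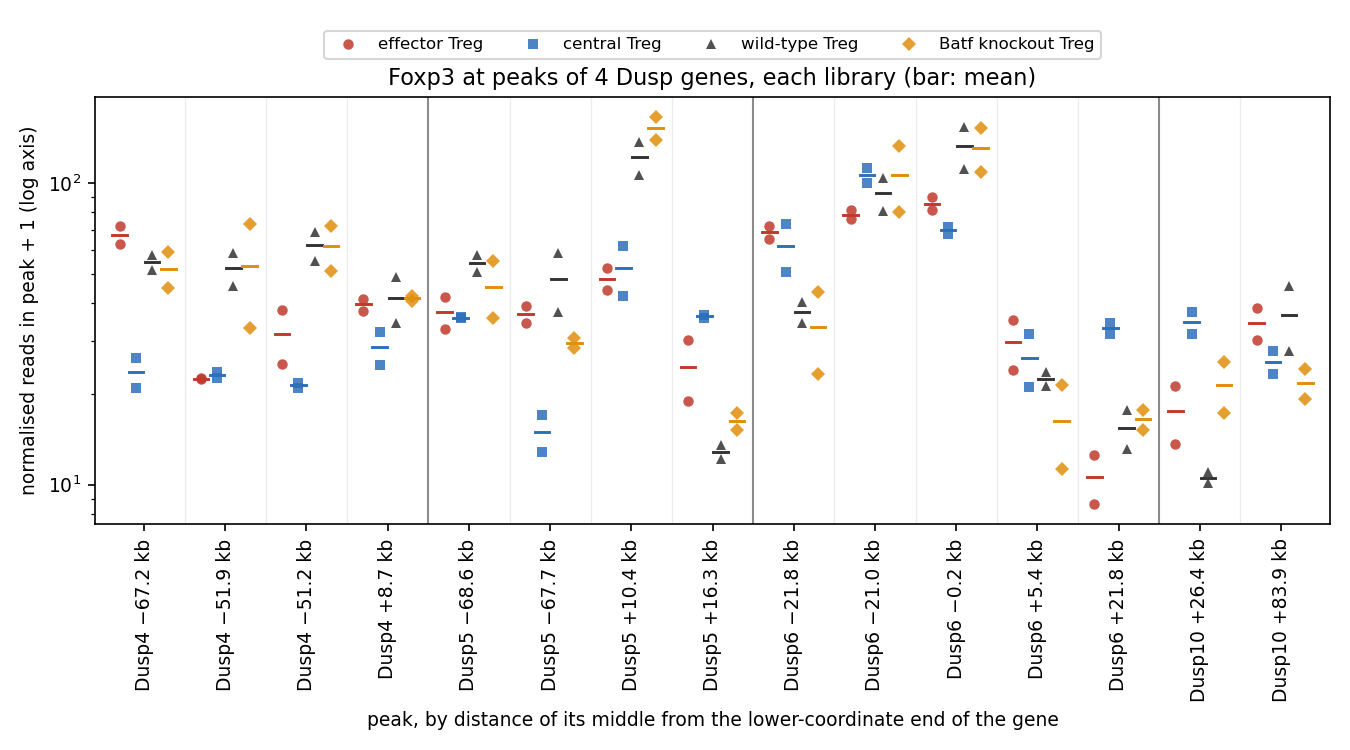
Normalised Foxp3 reads plus 1 (log axis) in 2 libraries each of effector, central, wild-type and Batf knockout Treg cells at the 15 member peaks of Dusp4, Dusp5, Dusp6 and Dusp10, with a bar at each mean. Effector and central cells are far apart at Dusp4 67.2 kb before the gene (66.3 against 22.6 on average) and close at 51.9 kb (21.4 against 22.1). Wild-type Treg cells were not compared with these subsets, and their means can lie above or below both. At Dusp5 10.4 kb after the start the mean was 120 in wild-type, 47.2 in effector and 51.0 in central cells. At 16.3 kb after it the means were 11.8, 23.5 and 35.1.

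The 3 distal Dusp4 sites had different Foxp3 patterns. The site 67.2 kb before the gene held 71.0 and 61.7 normalised reads in effector and 20.0 and 25.2 in central Treg cells. The log2 fold change was 1.52 ± 0.28 (SE, n = 2 per group, limma adjusted p = 0.000201), and the call held in all 12 alternatives. The site at 51.9 kb held 21.5 and 21.3 against 22.6 and 21.5, with an interval of -0.74 to 0.66. The site at 51.2 kb held 24.1 and 36.9 against 20.0 and 20.8 (0.53, interval -0.09 to 1.15), and the peak in the gene body 36.7 and 40.4 against 24.0 and 31.1 (0.48, interval -0.13 to 1.09). No test compared the sites with each other.

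Dusp5 had its called Foxp3 peak 67.7 kb before the start, at a site with no BATF or IRF4 peak. It held 38.01 and 33.5 normalised reads in effector and 16.0 and 11.9 in central cells (log2 fold change 1.31 ± 0.33 SE, limma adjusted p = 0.00382). The call was lost without effector library 1 or central library 2, with an adjusted p of up to 0.0528 over the alternatives. The neighbouring peak 68.6 kb before the start, which has BATF, held 31.7 and 40.9 against 34.6 and 34.8 (interval -0.55 to 0.65). The strongest Dusp5 peak held 43.1 and 51.3 against 41.3 and 60.8.

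Dusp6 had its called peak 21.8 kb after the start, also without BATF or IRF4. It held 7.60 and 11.5 in effector and 30.6 and 33.4 in central cells, a fall of 1.67 ± 0.41 on the log2 scale (a log2 fold change of -1.67, limma adjusted p = 0.00334), and the call was lost without effector library 1 (adjusted p up to 0.0560). The 3 Dusp6 sites with all factors were not called. The start site held 88.7 and 80.2 against 70.6 and 66.7 (interval -0.22 to 0.81). The site 21.0 kb before it held 74.8 and 80.2 against 98.6 and 111, and the site at 21.8 kb 71.0 and 64.0 against 71.9 and 49.7.

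At Dusp10 the peak 26.4 kb after the start held 20.3 and 12.7 in effector and 30.6 and 36.3 in central cells. It missed the threshold (log2 fold change -1.01, limma adjusted p = 0.0637) and was called lower in 5 alternatives, with an adjusted p as low as 0.00192 in edgeR. The peak 83.9 kb after the start held 29.1 and 37.5 against 26.6 and 22.2. Effector Treg marker peaks were called higher at 17 of 25 and lower at none in this comparison, with summed levels of 1071 to 1248 in effector and 462 to 465 in central cells. Peaks of central or naive T cell markers were called lower at 24 of 38 and higher at 2. Of 2 CD8 and NK cell marker peaks 1 was called higher, in Klrb1c (62.5 against 23.7, log2 fold change 1.37 ± 0.27 SE, limma adjusted p = 0.000416), and B cell and myeloid markers had no Foxp3 peak. The part of these differences in the Dusp results was not tested.

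BATF binding in Treg cells with Foxp3 R397W was called lower than in control Treg cells at 1 of 10 member peaks, a peak of Dusp4. Of all 9973 peaks, 8.04% were called lower and 0.612% higher, so the member count is near the share of all peaks. No member peak was called higher, and none was higher at an unadjusted p under 0.05, in limma, edgeR or DESeq2. At an unadjusted p under 0.05 in limma 4 were lower, as in edgeR, and 1 in DESeq2. The median log2 fold change was -0.57, against -0.02 over all peaks. Over the 6 peaks without Dusp4 it was 0.06, and none of these was called. Both R397W libraries lay below both controls at 5 of 10 peaks, against 28.8% of all peaks, and above them at 1, against 22.7%.

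All 4 Dusp4 peaks were among those 5. The peak 51.2 kb before the gene held 44.5 and 55.4 normalised BATF reads in R397W and 110 and 138 in control cells, a log2 fold change of -1.29 ± 0.28 (SE, n = 2 per group, limma adjusted p = 0.0109). The call was lost with no trend of the spread on the mean, with DESeq2, without the control library with the fewest reads and without R397W library 1, with an adjusted p of up to 0.113 over the alternatives. That control library had 144319 reads in peaks, and 3 reads there are 10.4 normalised reads.

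The other Dusp4 peaks fell short of the threshold. The peak 51.9 kb before the gene held 68.4 and 74.1 against 95.6 and 111 (log2 fold change -0.52, interval -1.09 to 0.04, limma adjusted p = 0.264). The peak 67.2 kb before it held 70.1 and 77.6 against 98.7 and 149 (-0.71, interval -1.29 to -0.13, limma adjusted p = 0.133). The peak in the gene body held 8.55 and 24.3 against 47.8 and 31.1 (-1.35, interval -2.54 to -0.16, limma adjusted p = 0.159). R397W values were therefore lower in both libraries at all 4, by amounts that limma called at 1.

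**Figure D5:**
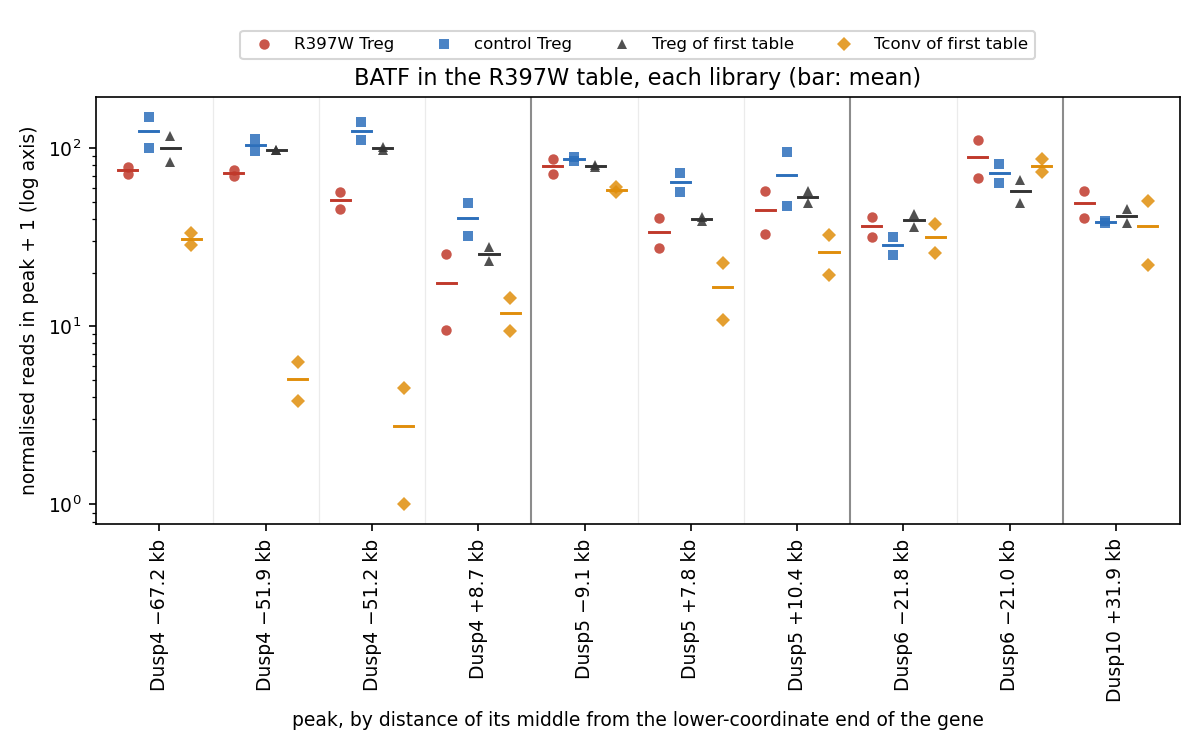
Normalised BATF reads plus 1 (log axis) in the second BATF table, with 2 libraries each of R397W and control Treg cells and of the Treg and Tconv cells that also form the first table, at the 10 member peaks, with a bar at each mean. At the Dusp4 peak 51.2 kb before the gene the R397W libraries (44.5 and 55.4) lie between the controls (110 and 138) and Tconv cells (3.52 and 0).

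In this table the Tconv libraries held 3.52 and 0 normalised reads at the Dusp4 peak 51.2 kb before the gene and 2.82 and 5.27 at the one 51.9 kb before it. The R397W libraries, at 44.5 to 74.1, lay above them at both, a comparison given without a test since the cells differ in genotype and sort. At 67.2 kb R397W cells held 70.1 and 77.6 and Tconv cells 32.4 and 27.7.

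Dusp5 had 3 BATF peaks in this comparison and none was called. The one 7.8 kb after the start held 39.3 and 26.3 in R397W and 71.0 and 55.3 in control cells (log2 fold change -0.94, interval -1.72 to -0.16, limma adjusted p = 0.134). The strongest, 9.1 kb before the start, held 85.5 and 70.0 against 87.9 and 83.0. The peak 10.4 kb after the start held 56.4 and 31.9 against 46.3 and 93.4. At Dusp6 the strongest peak, 21.0 kb before the start, held 66.7 and 109 against 80.2 and 62.3, and the Dusp10 peak 31.9 kb after the start 56.4 and 39.5 against 37.0 and 38.04. At Dusp6 the groups overlapped at both peaks, and at Dusp10 both R397W libraries lay above the controls.

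Marker peaks of Treg and effector Treg cells moved in the same comparison. Effector Treg marker peaks were called lower at 11 of 27 and higher at none, with summed levels of 853 to 1125 normalised reads in R397W and 1795 to 2040 in control cells. Treg marker peaks were called lower at 4 of 10, with 342 to 408 against 876 to 934. Myeloid marker peaks were called lower at 1 of 3, with 31.9 to 32.5 against 83.0 to 92.5, and Lyz2, Csf1r and Itgam had no peak. Peaks of central or naive T cell markers were called lower at 3 of 36 and higher at none. Of 2 B cell marker peaks and 7 CD8 and NK cell marker peaks none was called. The part of these differences in the Dusp4 result was not tested.

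The other genes of the pathway were counted from 4 lists, by the same rule for peaks. Their counts stand beside the shares of all peaks: 14.9% higher and 4.79% lower for BATF in Treg cells, 15.8% and 8.39% for IRF4, 0.547% and 3.91% for Foxp3 in knockout cells, 15.0% and 10.8% in effector cells, and 0.612% and 8.04% for BATF in R397W cells. Nothing particular to a list is read from them. Among 14 other dual-specificity phosphatases, BATF was higher in Treg cells at 4 of 18 peaks and lower at none, and IRF4 higher at 3 of 8 and lower at 1. Foxp3 was lower in Batf knockout cells at 1 of 4 peaks and higher in effector cells at 1 of 4. In both cases this was Dusp1, an inducible nuclear phosphatase that acts on JNK, p38 and ERK. Its Foxp3 peak, 24131 bp from the gene, held 37.1 ± 2.14 normalised reads in knockout and 89.3 ± 19.0 in wild-type cells (SD, n = 2 each, limma adjusted p = 0.0399). It held 85.9 ± 13.9 in effector and 21.6 ± 15.5 in central cells (SD, n = 2 each, limma adjusted p = 6.96e-05).

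BATF at a nearby Dusp1 peak, 23269 bp from the gene, was 191 ± 49.6 in Treg cells against 35.3 ± 7.54 in Tconv cells (SD, n = 2 each, limma adjusted p = 1.10e-05). IRF4 at a peak 23208 bp from it was 37.8 ± 3.42 against 8.81 ± 3.91 (SD, n = 4 each, limma adjusted p = 0.000186). So Dusp1 was called in the knockout comparison, where no peak of the 5 genes was; the difference between Dusp1 and the other genes was not tested. BATF at Dusp14, inside the gene, was 70.4 ± 32.4 in Treg and 4.47 ± 0.255 in Tconv cells (limma adjusted p = 0.000135) and 16.7 ± 7.88 in R397W against 56.4 ± 3.40 in control cells (limma adjusted p = 0.0258).

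Among 30 kinases of the ERK, JNK and p38 cascades and Ras activators, BATF was higher in Treg cells at 16 of 73 peaks and lower at 3, and IRF4 higher at 9 of 49 and lower at 2. Foxp3 was lower in Batf knockout cells at 1 of 34 cascade peaks, in Mapk14, the gene of p38 alpha. In effector cells it was higher at 7 of 34 and lower at 8. BATF was lower in R397W cells at 6 of 49, among them Map4k4 (10.5 ± 2.09 against 67.4 ± 7.24).

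Among 13 other feedback inhibitors of Ras and ERK, BATF was higher in Treg cells at 6 of 33 peaks and lower at 1, and IRF4 higher at 2 of 17 and lower at 1. Foxp3 was lower in knockout cells at 1 of 10, and in effector cells higher at 4 and lower at 2. BATF was lower in R397W cells at 2 of 23 and higher at 1. Errfi1, which encodes an inhibitor of EGF receptor kinases, was called in 4 of these comparisons at peaks 44881 to 54648 bp from the gene: BATF higher in Treg cells (220 ± 5.80 against 62.8 ± 13.2), IRF4 higher (78.3 ± 10.5 against 33.8 ± 4.22), Foxp3 lower in knockout cells (17.2 ± 11.6 against 45.7 ± 12.6) and BATF lower in R397W cells (69.9 ± 11.8 against 153 ± 3.16).

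Among 14 ERK-responsive transcription factor genes, BATF was higher in Treg cells at 8 of 38 peaks and IRF4 at 3 of 18, with none lower. In the knockout comparison none of 12 peaks was called in limma, and none had an unadjusted p under 0.05. Foxp3 was higher in effector cells at 2 of 12 and lower at 1, and BATF lower in R397W cells at 2 of 16. A peak of Fosb, an AP-1 gene, held 75.5 ± 4.60 normalised BATF reads in Treg and 7.95 ± 5.18 in Tconv cells, and 15.7 ± 10.1 in R397W against 55.4 ± 19.5 in control cells. The median log2 fold changes of the 4 lists for BATF in Treg against Tconv cells, in the order given, were 0.09, 0.14, 0.01 and 0.24, beside -0.03 over all peaks.

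For each gene with a peak in all 4 tables, the log2 fold changes of its strongest peak in the 5 comparisons were set beside those of 1666 genes with such peaks, and likeness was the Euclidean distance over the 5 values. The strongest Dusp4 peaks by the mean over all libraries were those at 67.2 kb, except in the first BATF table, where it was the one 0.4 kb before the gene. The nearest genes to Dusp4 were Grk3 (0.459), Tpst2 (0.515) and Rasa1 (0.531), and Rasa1 encodes a Ras inhibitor. Those nearest to Dusp5 were Hemk1 (0.140), Cd226 (0.217) and Tyw5 (0.228). For Dusp6 they were Etv3 (0.262), Sema4b (0.269) and Jakmip1 (0.320), and for Dusp10 Smarca2 (0.315), Arhgap39 (0.384) and Lin54 (0.387). Dusp2, with no Foxp3 peak, has no such value.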

How the data were processed

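The authors deposited 4 tables of normalised signal per peak, with 1 peak list for all libraries of a table. The tools listed in the submitters' processing notes are DiffBind 3.12.0, edgeR 3.38.4, MACS2 2.2.7.1 and Bowtie2 2.4.1, with build mm10; their roles and filters are not given in the sources used here. Every value was a whole number of reads, within 0.01, times 1 factor per library, which can hide a shift that most peaks share. The depth of whole libraries is unknown.

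Peaks were assigned to GRCm38.p6 genes, the same assembly as mm10; the gene table gives no exons. Values were compared with limma 3.58.1 (R 4.3.3) on log2(value + 1), with the spread modelled as a function of the mean, two-sided, with Benjamini-Hochberg adjustment over every peak in a table. All 8 Foxp3 libraries entered 1 fit. Fold changes are on the log2(value + 1) scale. An adjusted p under 0.05 was called. The script was tested on simulated data. Alternatives were edgeR 4.0.16, DESeq2 1.42.0, other pseudocounts, filters, scalings and distances, and libraries left out.

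The text names each gene's strongest peak per table, every called peak and every site with 3 factors, and at most 2 genes per list and comparison, those with the smallest p. Members and lists were chosen with earlier results of these data known. Columns of the R397W controls were matched to their group and not to single samples. Results for a few named genes are not reported here.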

Additional observations from a re-analysis of the deposited data

Results flagged for a closer look

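Of 26 groups of 4 IRF4 libraries tested for a library far from the others, 2 held one, and chance flags about 1 in 20. At the Dusp10 peak 83.9 kb after the start, Tconv library 4 held 26.2861 normalised IRF4 reads, while the other Tconv libraries held 10.5 to 12.6. At the Dusp6 start, Treg library 2 held 19.0347, while the other Treg libraries held 30.7 to 31.3. The gap to the nearest library was 0.865 and 0.947 of the group's range. Neither peak was called in limma.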

How the results depend on the processing

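Counts of called member peaks, with Dusp4 included, were compared under each alternative. For BATF in Treg against Tconv cells the count was 10, and it was 6 of 21 with peaks within 50000 bp of the gene and 5 to 10 with a library left out, 5 without Treg library 1. For IRF4 it was 3, and 1 of 9 within 50000 bp. For Foxp3 in effector against central cells it was 3, with 1 of 10 within 50000 bp, and 1 to 3 with a library left out, 1 without effector library 1. For R397W it was 1, and 0 with no trend, 0 with DESeq2, 0 of 7 within 50000 bp, and 0 to 1 with a library left out: 0 without the shallowest control library and 0 without R397W library 1. The distal Dusp4 sites lie beyond 50000 bp, and where a group kept 1 library it was assumed to vary like the others. For the Batf knockout it was 0 in all alternatives run. Over single peaks and alternatives, 866 values kept their side of the threshold, 28 lost the call, 6 gained it and none reversed. The Dusp5 peak 1.4 kb after the start was gained for BATF without Tconv library 1.

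Over all peaks, called counts that moved by over 1.5 times were as follows. BATF in Treg against Tconv cells had 3167 calls, and 1771 among peaks above the 25th percentile of the mean. The knockout had 285, with 184 above that percentile, 174 with quantile normalisation, 135 and 108 without wild-type library 1 and 2, and 571 without knockout library 1. Effector against central cells had 1646, with 1077 in DESeq2, and 1081 and 1030 without effector library 1 and 2. R397W had 863, with 540 with quantile normalisation, 171 with no trend, 315 in DESeq2, 141 without the shallowest control library and 460 without R397W library 1. Quantile normalisation shifted the median of all peaks by over 0.1 for BATF in Treg cells (to -0.13), IRF4 (to -0.11) and R397W (to 0.13), and changed the BATF split from 2395 higher and 772 lower to 2086 and 1291. Counts in 1 direction moved by over 1.5 times in these cases. BATF in Treg cells had 1443 higher and 328 lower above the 25th percentile, and 444 lower in DESeq2. Higher calls in the knockout went from 35 to 17 above that percentile, 9 with quantile normalisation, 12 with only the 4 libraries compared, 19 without wild-type library 2 and 109 without knockout library 1. Its lower calls went from 250 to 165 with quantile normalisation, 108 and 89 without wild-type library 1 and 2, and 462 without knockout library 1. Effector cells had 958 higher, with 577 without effector library 2, and 688 lower, with 1062 with quantile normalisation, 415 in DESeq2 and 418 to 453 with 1 of the 4 libraries left out. Higher calls in R397W went from 61 to 131 in edgeR, 7 in DESeq2, 11 with no trend, 182 without the deeper and 17 without the shallowest control library, and 1 and 6 without R397W library 1 and 2. Its lower calls went from 802 to 482 with quantile normalisation, 160 with no trend, 308 in DESeq2, 468 and 124 without the deeper and the shallowest control library, and 459 without R397W library 1.

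The main fits did not use replicate numbers as pairs. Deviations of same-numbered libraries correlated at 0.088 for BATF, 0.035 to 0.13 for IRF4, 0.076 for the knockout and 0.14 for effector and central cells. Of 8 IRF4 libraries 6 correlated best with their own number, so the numbers may mark pairs there. With the replicate number as a block the counts of called member peaks, Dusp4 included, were 10, 3, 0 and 3. Over all peaks the block gave 3804 calls for BATF, against 3167 without it, and 2425 for IRF4, against 2208. The R397W groups share no numbers, so they had no such fit. Count tests were not run for the knockout, since the value of 1 read in 1 wild-type library was too close to 1 for a check of whole reads, and those for effector against central cells used their 4 libraries. Low reads limit the Dusp4 values in Tconv cells, and 3 reads in the shallowest control library are 10.4 normalised reads.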
